A study of Mus musculus with 20 samples.

Results

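The comparison described here sets day 5 in vitro against day 1 in vitro in mouse midbrain neuron cultures that were kept with GDNF. It asks which mature miRNAs changed over culture time in the presence of this growth factor. Its members are all libraries whose labels give day 1 or day 5 in vitro with GDNF, which came to 10 of the 20 libraries of the series, 5 on each day. Every culture was started from the ventral mesencephalon of embryonic day 12.5 embryos of the C57Bl6/J strain, freed of meninges, dissociated with trypsin and DNAse, and grown without serum in Neurobasal-A with B27 on plates coated with poly-L-ornithine and laminin. The 2 groups are DIV1_GDNF and DIV5_GDNF, both with 10 ng/ml GDNF in the medium, so that the growth factor is shared by both sides. The labelled difference between them is the day. Library depth differed with it, as given below, and the length of exposure to GDNF cannot be told apart from the day. The other 10 libraries (DIV1_control and DIV5_control, 5 each) had no GDNF and serve here only to ask whether the change over time differed between the 2 kinds of culture. The labels name primary neurons of the midbrain, but they give no purification step and no count of dopaminergic cells. They also do not say which replicates came from separate dissections. Each p-value below therefore measures the spread between these libraries, which may be technical.

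A miRNA is a short RNA cut from a hairpin transcript, of which either arm (5p or 3p) can become the mature form. Loaded into an Argonaute protein it represses mRNAs that pair with its seed, and miRNAs that share a seed are taken to share many targets. GDNF (glial cell line-derived neurotrophic factor) signals through the GFRA1 co-receptor and the RET kinase and is known for supporting the survival and axon growth of midbrain dopaminergic neurons. In the developing brain, miRNAs of the miR-17 family are known from dividing progenitors and miR-124 from the neurons they give rise to.

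The mature sequences that carry the changes are given first, 5′ to 3′, with the seed (bases 2 to 8) in capitals. They come from RefSeq's annotation of the GRCm38.p6 assembly (mm10), in which 447 of the 507 tested miRNAs had an entry. The first set holds miRNAs that were higher on day 5, including both miR-7 paralogues and the arms of miR-132 and miR-212 that share a seed.
miR-129-2-3p: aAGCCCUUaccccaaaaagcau
miR-7b-5p: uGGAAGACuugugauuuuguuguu
miR-7a-5p: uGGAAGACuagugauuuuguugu
miR-1298-3p: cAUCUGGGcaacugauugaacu
miR-448-3p: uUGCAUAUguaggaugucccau
miR-132-3p: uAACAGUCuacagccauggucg
miR-212-3p: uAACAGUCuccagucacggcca
miR-128-3p: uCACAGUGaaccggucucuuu
The second set holds arms that were lower on day 5, first those with the seed of miR-17 and then those with the seed of miR-92.
miR-17-5p: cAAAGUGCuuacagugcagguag
miR-106a-5p: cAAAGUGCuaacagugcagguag
miR-20a-5p: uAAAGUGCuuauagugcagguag
miR-20b-5p: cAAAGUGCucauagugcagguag
miR-93-5p: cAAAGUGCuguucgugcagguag
miR-92a-3p: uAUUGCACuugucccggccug
miR-92b-3p: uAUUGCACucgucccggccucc
miR-25-3p: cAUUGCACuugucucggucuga
miR-363-3p: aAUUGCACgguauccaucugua
miR-32-5p is shown because it has the seed of miR-92 and was higher on day 5, and the arms of the miR-183 cluster because the series is named for 2 of them.
miR-32-5p: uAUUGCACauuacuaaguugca
miR-182-5p: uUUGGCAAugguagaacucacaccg
miR-183-5p: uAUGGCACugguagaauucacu
miR-96-5p: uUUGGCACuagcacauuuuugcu
miR-106a-5p differed from miR-17-5p by 1 of 23 bases, miR-20b-5p from miR-20a-5p by 2 of 23, and miR-7b-5p from miR-7a-5p by 1 of 23. miR-92b-3p differed from miR-92a-3p by 2 of the 21 bases compared. Counts of these pairs could be split between paralogues by the mapping and are less certain than those of arms with no such paralogue.

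The day 5 libraries were deeper than the day 1 libraries without exception. Counts assigned to miRNAs were between 420118 and 1761023 per library on day 1 and between 1781030 and 3983722 on day 5, so depth and day cannot be told apart except by thinning the counts to 1 depth. A count of 3 reads was worth 1.70 to 7.14 CPM (counts scaled to a library size of 1e6) on day 1 and 0.753 to 1.68 CPM on day 5, a limit that covers counting error only. DIV5_GDNF libraries 1 and 2 differed from libraries 3 to 5 in a measure of the library: reads outside any miRNA made up 19.5% and 18.7% in these 2 and 9.51% to 11.7% in the other 3, against 16.5% to 20.5% on day 1. In log2 CPM libraries 3 to 5 correlated at 0.990 to 0.994 with each other and at 0.971 to 0.985 with libraries 1 and 2, which correlated at 0.983 with each other, so that these 2 are not a set of their own by this measure. On the first principal component of log2 CPM, the axis of largest spread (60.4% of the variance), they did lie apart. Libraries 1 and 2 were at 6.81 and 7.23, libraries 3 to 5 at 12.6 to 13.5, and the day 1 libraries at -11.5 to -9.74. Day 1 libraries correlated at 0.964 to 0.992, whereas pairs across the days correlated at 0.929 to 0.957 (Pearson's r over 507 miRNAs, which are not independent). For 217 of the 303 calls given next (71.6%), the mean of day 5 libraries 1 and 2 lay between the day 1 mean and the mean of libraries 3 to 5. The direction was the same in both sets for all 303, but the calls were made with these same libraries, so this agreement is not independent of them. In a fit of replicates 1 and 2 of both days alone, 300 of these calls were tested. Of the 300, 146 were called in the same direction and 4 had the opposite sign. No 2 libraries of a group were near-identical, with a chi-square per degree of freedom of at least 29.7.

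Of 507 miRNAs tested, 303 (59.8%) differed between the days in edgeR's quasi-likelihood test, with a call meaning here an adjusted p (Benjamini-Hochberg) under 0.05. On day 5, 164 (32.3%) were higher and 139 (27.4%) were lower, and the median log2 fold change over all 507 was 0.06. At least 2-fold differences were called for 76 higher (15%) and 67 lower miRNAs (13.2%). The CPM ranges of the 2 groups of 5 did not overlap for 197 miRNAs (38.9%). Leaving out each library in turn kept 245 of the 303 calls in every fit and changed the sign of none. With counts thinned to 420118 per library, 198 of 359 tested miRNAs were called, 101 higher and 97 lower, and in replicates 1 and 2 alone 162 of 505 were called. The values are relative abundances in bulk RNA, so that fewer cells of a type and less RNA per cell cannot be told apart.

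**Figure D1:**
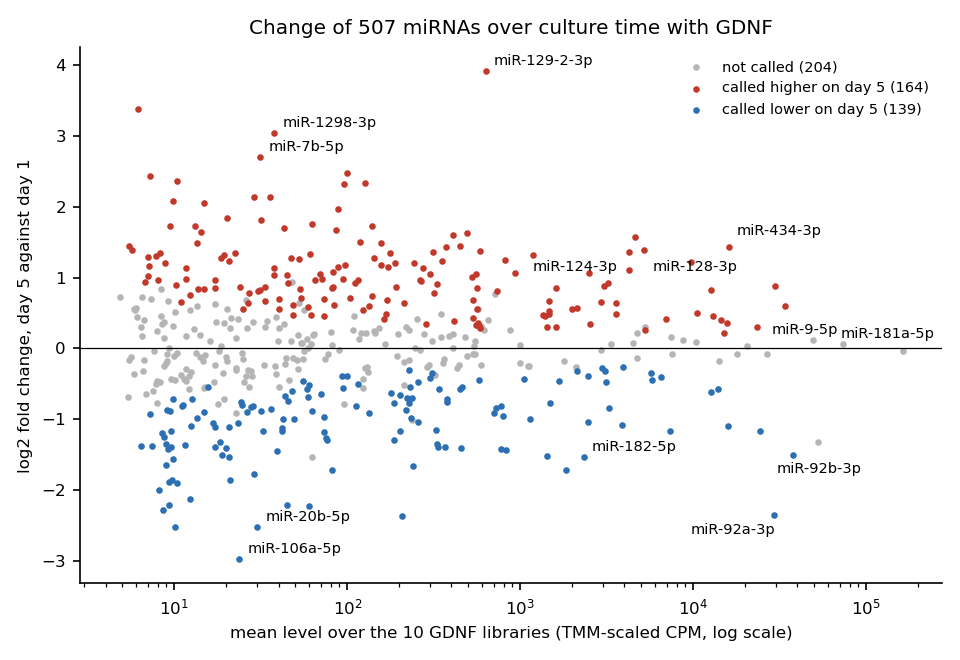
Each point is 1 of 507 miRNAs, with its mean level over the 10 GDNF libraries on the x axis (TMM-scaled CPM, log scale) and its log2 fold change of day 5 against day 1 on the y axis; red points were called higher (164), blue points lower (139) and grey points were not called (204). miR-129-2-3p stands highest at 3.91, and miR-92a-3p and miR-92b-3p are the lowest among the miRNAs above 10000 CPM.

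Of the 5 most abundant miRNAs of these cultures 1, miR-92b-3p, was called. miR-181a-5p, abundant in the developing brain, led with 164608 ± 17765 CPM on day 1 and 160626 ± 17611 on day 5 (SD, n = 5), which is -0.04 ± 0.10 in log2 fold change ± SE, with an adjusted p of 0.774. miR-9-5p, known from progenitors of the nervous system, was at 71831 ± 7547 and 74666 ± 14832 CPM (log2 0.06 ± 0.14), and miR-99b-5p at 47567 ± 16311 and 51436 ± 12482 CPM (log2 0.11 ± 0.25). Neither these 2 nor miR-181a-5p passed the test. miR-92b-3p, known from neural progenitors, fell from 69608, 55378, 50862, 54986 and 47992 CPM in day 1 libraries 1 to 5 to 18689, 18131, 21274, 22042 and 18318 CPM on day 5. Its groups did not overlap, and the level was 2.83-fold lower (log2 -1.50 ± 0.11, adjusted p = 3.34e-07). miR-6239 was the most uneven of the 5, with 68764, 70498, 83681, 116399 and 37817 CPM on day 1 and 60278, 42963, 28464, 11517 and 8225 CPM on day 5. Its ranges overlapped and its log2 fold change of -1.32 ± 0.57 did not pass (adjusted p = 0.0767), although it did in 7 of 23 alternatives. It passed without DIV5_GDNF replicate 1 (log2 -1.72, adjusted p = 0.0274), without day 5 libraries 1 and 2 (-2.24, 0.0125). It also passed by DESeq2 (-1.37, 0.0155), with all 20 libraries (-1.36, 0.0183), with a replicate block (-1.59, 0.0267), by limma voom (-1.66, 0.0284) and by upper quartile scaling (-1.46, 0.0435). It was at -0.42 in replicates 1 and 2 and -2.21 in replicates 3 to 5. These 5 miRNAs, a fixed set chosen by the mean over the 10 libraries, together held 40.1% ± 1.64 of the counts on day 1 and 34.7% ± 2.26 on day 5 (SD, n = 5). They are not the 5 most abundant of each single library.

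miR-129-2-3p, a brain-enriched miRNA, showed the largest increase of any call that averaged 10 CPM or more. It was at 67.4, 54.3, 72.8, 84.2 and 124 CPM in day 1 libraries 1 to 5 and at 1189.6, 1868, 940.4, 854 and 1059.7 CPM in day 5 libraries 1 to 5. The lowest day 5 library lay several times above the highest day 1 library, and the level rose 15.1-fold (log2 3.91 ± 0.26, adjusted p = 2.97e-07). The increase was log2 4.67 in replicates 1 and 2 and 3.50 in replicates 3 to 5. Its hairpin gene Mir129-2 (chr2:94241364-94241453, minus strand) lies in an intron of Mir670hg (GENCODE vM21, GRCm38, as for all positions here). miR-129-1-3p, from the other copy of the hairpin, rose from 12.2 ± 3.95 to 29.3 ± 6.25 CPM (log2 1.24 ± 0.26, adjusted p = 0.000975). Counts of these paralogous 3p arms could also be split between them by the mapping. The rise of the rarer arm is therefore not shown to be separate from that of miR-129-2-3p.

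Both 5p arms of miR-7 rose. miR-7, which is brain-enriched and known to repress the mRNA of alpha-synuclein, is read from several hairpins. miR-7b-5p was at 8.42, 12.1, 5.24, 2.9 and 17.7 CPM on day 1 and at 39.8, 28.0, 73.2, 58.5 and 68.3 CPM on day 5. The groups did not overlap, although the 2 lowest day 5 values were those of libraries 1 and 2, and the rise was 6.53-fold (log2 2.71 ± 0.39, adjusted p = 5.29e-05). It was log2 1.69 in replicates 1 and 2 and 3.46 in replicates 3 to 5. The more abundant miR-7a-5p was at 119, 81.0, 100.1, 54.2 and 58.2 CPM on day 1 and 129, 113, 245, 214 and 311 CPM on day 5, where library 2 of day 5 lay inside the day 1 range and library 1 just above it. It rose 2.44-fold over all libraries (log2 1.28 ± 0.30, adjusted p = 0.00297), by log2 1.87 in replicates 3 to 5, and in replicates 1 and 2 its value of 0.29 did not pass (adjusted p = 0.385). The opposite arms did not pass, with log2 0.14 ± 0.23 for miR-7a-1-3p and 0.01 ± 0.17 for miR-7a-2-3p.

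miR-1298-3p and miR-448-3p, which also rose, both lie in introns of Htr2c, the serotonin 2C receptor gene, at Mir1298 (chrX:147064905-147065002, plus strand) and Mir448 (chrX:147158210-147158321, plus strand). miR-1298-3p was at 9.83, 12.1, 5.82, 8.71 and 2.53 CPM on day 1 and at 42.8, 54.8, 98.8, 82.4 and 59.1 CPM on day 5, without overlap (8.25-fold higher, log2 3.04 ± 0.32, adjusted p = 3.14e-06). miR-448-3p was at 39.3, 27.6, 32.0, 26.1 and 25.3 CPM and then at 112, 135, 204, 219 and 175 CPM (5.59-fold higher, log2 2.48 ± 0.21). The other arm of the first hairpin, miR-1298-5p, rose from 81.8 ± 4.03 to 230.3 ± 70.2 CPM (log2 1.49 ± 0.19). miR-490-3p, whose hairpin Mir490 (chr6:36421742-36421825, plus strand) lies in an intron of the muscarinic receptor gene Chrm2, rose from 13.4 ± 3.37 to 58.2 ± 13.3 CPM (log2 2.14 ± 0.23). Both arms of miR-873a, at Mir873a (chr4:36668510-36668586, minus strand) in an intron of Lingo2, rose: miR-873a-5p from 41.5 ± 7.11 to 212 ± 43.6 CPM (log2 2.34 ± 0.18) and miR-873a-3p from 6.52 ± 3.75 to 23.3 ± 4.91 CPM (log2 2.05 ± 0.32). The expression of these host genes was not measured in small RNA libraries. The remaining large increases were miR-344b-3p (log2 2.37 ± 0.34), miR-3059-5p (log2 2.33 ± 0.23, from an intron of Mgat4c) and miR-770-5p (log2 1.84 ± 0.28), and in replicates 1 and 2 alone miR-770-5p was at log2 1.17 and not called (adjusted p = 0.0798).

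**Figure D2:**
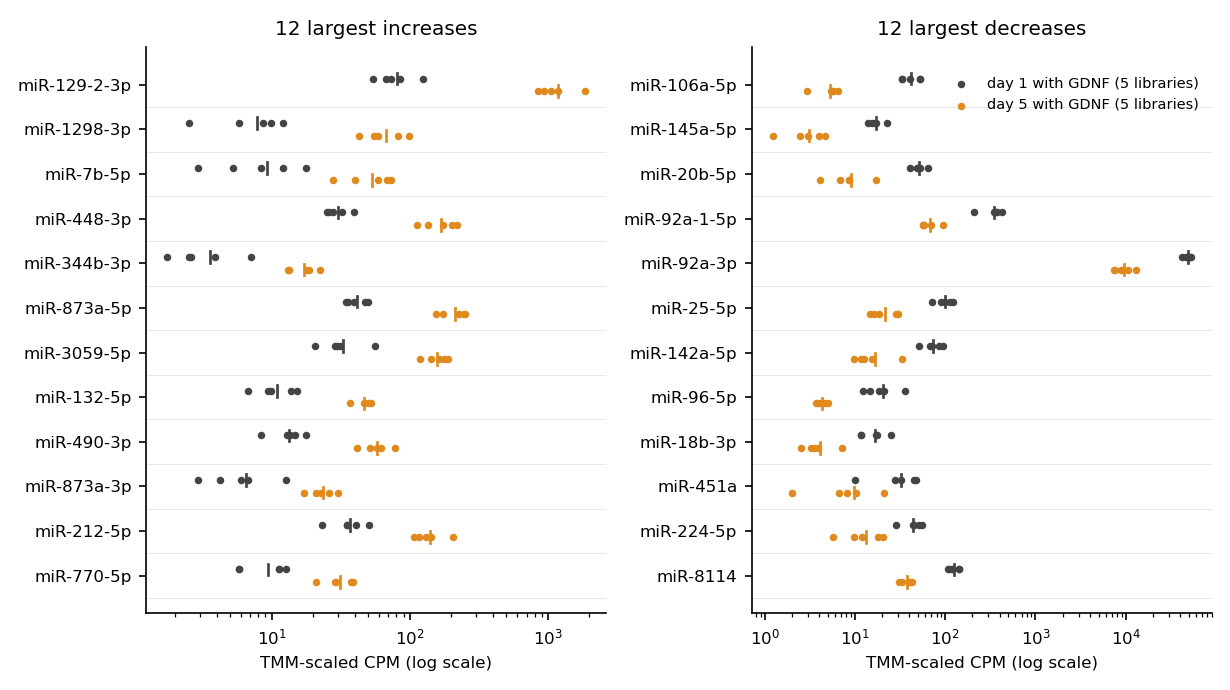
TMM-scaled CPM (x axis, log scale) of the 12 called miRNAs with the largest increases (left) and the 12 with the largest decreases (right) among those with a mean of at least 10 CPM; each dot is 1 library, grey for day 1 and orange for day 5, both with GDNF, and the short line is the mean of 5. The 2 groups are separate for 23 of the 24 miRNAs and overlap for miR-451a (10.1 to 47.2 against 2.01 to 21.0 CPM).

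miR-132 and miR-212 are transcribed together and are known targets of CREB that respond to neuronal activity and neurotrophins. Their hairpins lie side by side at Mir212 (chr11:75173388-75173478, plus strand) and Mir132 (chr11:75173682-75173747, plus strand), in an intron of 1700016P03Rik, and all 4 arms rose. miR-132-3p, the main product, was at 140.4, 193, 203, 174 and 311 CPM on day 1 and at 575, 732, 723, 507 and 547 CPM on day 5. Every day 5 library lay above every day 1 library, with a rise of 3.05-fold (log2 1.61 ± 0.19, adjusted p = 1.04e-05). The log2 fold change was 2.14 ± 0.23 for miR-132-5p, 1.97 ± 0.23 for miR-212-5p and 1.16 ± 0.24 for miR-212-3p. In the list of miRNAs known to respond to activity or neurotrophins, 8 of 10 tested arms rose, 2 fell and the median was 0.95, against 32.3% higher, 27.4% lower and 0.06 over all tested miRNAs. Over the alternatives 5 to 8 were called higher. Its most abundant member, miR-146b-5p, rose from 605 ± 127 to 1265 ± 307 CPM (log2 1.06 ± 0.18, adjusted p = 0.000237). The 2 that fell were miR-146a-5p (log2 -0.68 ± 0.23) and miR-184-3p (log2 -1.39 ± 0.48). The call of miR-146a-5p was lost without DIV1_GDNF replicate 1 (adjusted p = 0.0753), DIV5_GDNF replicate 3 (0.0627) or DIV5_GDNF replicate 4 (0.0527), and that of miR-184-3p without DIV1_GDNF replicate 3 or DIV5_GDNF replicate 3 (largest adjusted p = 0.0576). Of the risers miR-188-5p kept its call in 3 of the 10 fits that left out 1 library (without DIV1_GDNF replicates 2 or 4 or DIV5_GDNF replicate 1, largest adjusted p = 0.103). miR-134-5p lost it without DIV1_GDNF replicates 4 or 5 or DIV5_GDNF replicate 4 (largest adjusted p = 0.0707), and miR-134-3p without DIV1_GDNF replicates 2 or 3 (largest adjusted p = 0.0653).

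Among miRNAs known to be enriched in neurons, 14 of 25 tested arms rose, 4 fell and 7 did not pass, with a median of 0.46, against 32.3% higher, 27.4% lower and a median of 0.06 over all tested miRNAs. Over the alternatives 9 to 16 were called higher. miR-124-3p, which represses many non-neuronal mRNAs, was at 2259, 2205, 2377, 2347 and 2655 CPM on day 1 and at 5083, 5499, 6079, 6037 and 7747 CPM on day 5. The day 5 libraries were all above the day 1 libraries, 2.57-fold on average (log2 1.36 ± 0.12, adjusted p = 7.3e-07). miR-128-3p rose from 1756, 2677, 2735, 2769.6 and 4364 CPM to 6934, 10638, 6442, 6407 and 7024 CPM, 2.62-fold (log2 1.39 ± 0.22, adjusted p = 0.000171). In both groups 1 library lay high, DIV1_GDNF library 5 and DIV5_GDNF library 2. miR-137-3p, a neuronal miRNA linked to synapse function, rose from 63.6 ± 8.996 to 213 ± 53.9 CPM (log2 1.73 ± 0.19). miR-383-5p rose from 202 ± 14.7 to 543 ± 141 CPM (log2 1.43 ± 0.16), and miR-153-3p from 2149 ± 116 to 3970.1 ± 669 CPM (log2 0.89 ± 0.11). The 4 that fell were miR-124-5p (log2 -1.29 ± 0.14), miR-153-5p (log2 -0.66 ± 0.15), miR-488-5p (log2 -0.55 ± 0.14) and miR-138-1-3p (log2 -0.75 ± 0.29). The call of miR-138-1-3p was lost in 7 of the 10 fits that left out 1 library, all but those without DIV1_GDNF replicate 1, DIV1_GDNF replicate 2 or DIV5_GDNF replicate 1 (largest adjusted p = 0.106). Among the risers miR-218-5p kept its call in 2 of these fits (without DIV1_GDNF replicate 1 or DIV5_GDNF replicate 2, largest adjusted p = 0.129). miR-138-2-3p kept it in 4 (without DIV1_GDNF replicate 5 or DIV5_GDNF replicates 1, 2 or 5, largest adjusted p = 0.0854), and miR-323-3p in 4 (without DIV1_GDNF replicates 1 or 5 or DIV5_GDNF replicates 2 or 5, largest adjusted p = 0.0977). The summed level of the tested and untested arms of the list was 11268 to 14015 CPM over the day 1 libraries and 23082 to 28304 CPM over the day 5 libraries, without overlap.

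The clearest decrease was that of the miR-17-92 cluster and its paralogues miR-106a-363 and miR-106b-25, which are known from proliferating cells. All 23 tested arms fell (100% against 27.4% lower over all tested miRNAs), with a median of -1.27, and 19 of them without overlap of the groups (38.9% over all tested miRNAs). Over the alternatives 18 to 23 arms were called lower. Besides the arms described next, miR-25-5p fell from 98.7 ± 19.9 to 21.6 ± 7.1 CPM (log2 -2.23 ± 0.23) and miR-18b-3p from 16.7 ± 5.62 to 4.07 ± 1.8 CPM (log2 -1.90 ± 0.33). The paralogous clusters lie at Mir17 (chr14:115043671-115043754, plus strand), the first hairpin of Mir17hg, and Mir106a (chrX:52742503-52742567, minus strand), outside other annotated genes, and the third, with Mir25 (chr5:138165321-138165404, minus strand), is inside Mcm7, which encodes a replication licensing factor. The list held 6.82% ± 0.593 of the counts on day 1 and 2.03% ± 0.262 on day 5 (SD, n = 5).

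miR-92a-3p carried most of that share on day 1. It was at 51796, 46889.8, 50546, 53025 and 42350.5 CPM on day 1 and at 10718, 12962, 8979, 7476 and 7607 CPM on day 5, so that the highest day 5 library was far under the lowest day 1 library. The level was 5.12-fold lower (log2 -2.36 ± 0.15, adjusted p = 1.61e-07). The opposite arm, miR-92a-1-5p, fell from 344.96 ± 80.2 to 67.2 ± 16.2 CPM (log2 -2.36 ± 0.20). The seed of miR-92 is shared by 5 tested arms, whose summed level was 99710.4 to 131524 CPM on day 1 and 30421 to 37112 CPM on day 5, 3.39-fold lower in the mean. In this seed family miR-25-3p (log2 -1.17 ± 0.12) and miR-363-3p (log2 -1.35 ± 0.15) fell beside miR-92a-3p and miR-92b-3p. miR-32-5p, the fifth member, lies outside these clusters and rose, from 16.8, 13.8, 16.3, 18.4 and 20.2 CPM to 24.2, 28.6, 28.7, 35.5 and 35.9 CPM without overlap (log2 0.87 ± 0.20, adjusted p = 0.00194). All 6 tested arms with the seed of miR-17 fell, from a summed 7299.7 to 8766 CPM on day 1 to 3160.1 to 4444 CPM on day 5.

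The size of the decrease varied among the arms. miR-106a-5p had the largest decrease of any call that averaged 10 CPM or more, from 51.9, 52.6, 40.2, 32.9 and 32.9 CPM to 6.54, 2.91, 5.65, 5.67 and 5.44 CPM, 7.87-fold (log2 -2.98 ± 0.24, adjusted p = 5.16e-07). miR-20b-5p fell from 49.1, 50.0, 52.98, 63.9 and 40.5 CPM to 17.1, 4.08, 8.6, 8.63 and 6.81 CPM, 5.75-fold (log2 -2.52 ± 0.29). Both come from the X-linked cluster, and neither overlapped between the days. Their paralogues of the chromosome 14 cluster were more abundant and had smaller changes, miR-17-5p from 1208 ± 117 to 448 ± 79.6 CPM (log2 -1.43 ± 0.13). miR-20a-5p went from 655 ± 54.2 to 248 ± 52.8 CPM (log2 -1.40 ± 0.15). The ratio of paralogues within a library, which needs no scaling between libraries, is given for 4 pairs chosen after these values were seen, as a description with no test. The log2 ratio of miR-106a-5p to miR-17-5p was -4.87 ± 0.255 on day 1 and -6.45 ± 0.511 on day 5 (SD, n = 5), without overlap. The mean log2 ratio moved by -1.22 for miR-20b-5p to miR-20a-5p and by -0.63 for miR-18b-5p to miR-18a-5p, with overlapping groups for both. miR-363-3p, also of the X-linked cluster, moved the other way against miR-92a-3p, by 1.04, without overlap. Since miR-92a-3p is made from both clusters, that ratio does not set the X-linked cluster against the chromosome 14 cluster. The smallest decreases in the list were those of miR-106b-3p (log2 -0.35 ± 0.14), miR-19b-3p (log2 -0.43 ± 0.11) and miR-106b-5p (log2 -0.45 ± 0.15). Of the 10 fits that left out 1 library, 1 kept the call of miR-106b-3p (the one without DIV5_GDNF replicate 2, with a largest adjusted p of 0.136 over the 10), and the call of miR-106b-5p was lost without DIV5_GDNF replicate 4 (adjusted p = 0.0510).

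**Figure D3:**
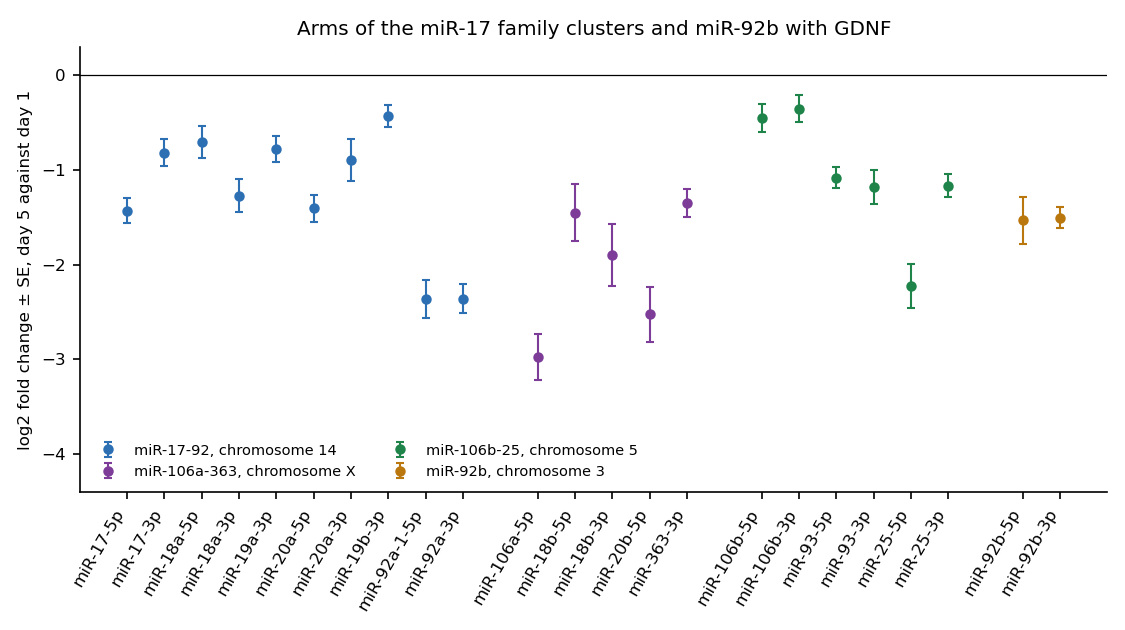
Log2 fold change of day 5 against day 1 with GDNF (y axis, with the SE as error bar, 5 libraries against 5) for arms of the 3 miR-17 family clusters and of miR-92b (x axis, coloured by cluster); miR-92a-3p and miR-19b-3p are also made from the X-linked cluster and are drawn with chromosome 14. Every point is below 0, from -2.98 for miR-106a-5p to -0.35 for miR-106b-3p.

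All 8 tested arms of the miR-130 and miR-301 family fell, against 27.4% lower over all tested miRNAs, with a median of -0.93, from -1.43 ± 0.16 for miR-130b-5p to -0.35 ± 0.08 for miR-130a-3p. Its most abundant member, miR-301a-3p, was at 15811, 16836, 18323, 15881 and 16417 CPM on day 1 and at 11295, 10214, 9025, 11984 and 13562 CPM on day 5, 1.48-fold lower without overlap (log2 -0.57 ± 0.11, adjusted p = 0.000509). The 3 tested arms of the pluripotency miRNAs of miR-302 were low, with 22.7 ± 6.51 CPM for miR-302b-3p and 14.6 ± 4.27 CPM for miR-302a-3p on day 1, and all 3 were called lower (log2 -1.05 ± 0.25 and -1.57 ± 0.33 for these 2). The third, miR-302d-3p, kept its call in 3 of the 10 fits that left out 1 library (without DIV1_GDNF replicate 5 or DIV5_GDNF replicates 1 or 2, largest adjusted p = 0.0714). None of the 3 was called in replicates 1 and 2, and none was tested after thinning. Of the 28 arms listed for that group, 11 had no read in any library. In the list used here for neural stem and progenitor cells the directions were mixed: of 23 tested arms, 6 rose, 11 fell and 6 did not pass (median -0.26), against 32.3% higher and 27.4% lower over all tested miRNAs. The arms that fell included miR-92b-3p and miR-181b-5p (from 33468 ± 1133 to 14896 ± 2806 CPM, log2 -1.17 ± 0.12). The 6 that rose were miR-135a-5p, miR-135b-5p, miR-181c-5p and the Htr2c arms miR-1298-3p, miR-1298-5p and miR-448-3p. Whether these Htr2c arms mark progenitor cells was not tested, so the mixed directions depend on how the list was drawn up. The last of the large decreases outside these families were miR-224-5p, from 44.4 ± 9.98 to 13.2 ± 6.02 CPM (log2 -1.77 ± 0.32), whose hairpin lies in an intron of the GABA receptor gene Gabre, and miR-8114, from 124 ± 17.0 to 37.9 ± 5.4 CPM (log2 -1.72 ± 0.16).

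let-7 miRNAs, known to accumulate as cells differentiate, went several ways. Of 19 tested arms 8 rose, 2 fell and 9 did not pass, with a median of 0.51, against 32.3% higher, 27.4% lower and a median of 0.06 over all tested miRNAs. The most abundant, let-7c-5p, was at 10679, 21776, 21822, 20129 and 26670.3 CPM on day 1 and 27682, 27658, 16098, 17582 and 14463 CPM on day 5, with overlapping groups and a log2 fold change of 0.03 ± 0.26 (adjusted p = 0.913). Its direction depended on the libraries, with 0.78 in replicates 1 and 2 (not called) and -0.41 in replicates 3 to 5 (adjusted p = 0.0122). let-7f-5p rose over all libraries (log2 0.51 ± 0.15, adjusted p = 0.0087), by 1.00 in replicates 1 and 2 and by 0.25 in replicates 3 to 5, where it did not pass (adjusted p = 0.083). let-7g-5p rose from 2260.1 ± 300.5 to 3558 ± 316 CPM without overlap (log2 0.65 ± 0.11, adjusted p = 0.000203). Of the miR-99/100 and miR-125 families, which are transcribed with let-7 members, 3 arms rose (27.3%), 3 fell (27.3%) and 5 did not pass. These shares are near the 32.3% higher and 27.4% lower over all tested miRNAs. Their most abundant riser, miR-125b-5p, was at 20126, 18891, 14205, 20436 and 30338 CPM on day 1 and 32901, 39132, 41017, 43806 and 34679.9 CPM on day 5, 1.84-fold higher without overlap (log2 0.88 ± 0.16, adjusted p = 0.000434). miR-29, known to increase as neurons mature, was low in both groups, and both tested arms rose, miR-29a-3p to 85.8 ± 15.3 CPM (log2 0.96 ± 0.21) and miR-29c-3p to 51.3 ± 11.8 CPM (log2 1.04 ± 0.27). miR-16-5p, of a family that restrains the cell cycle, fell 1.53-fold, from 15328 ± 1211 to 10017 ± 1409 CPM (log2 -0.61 ± 0.11, adjusted p = 0.000237). Of the 10 tested arms of that family 2 rose (20%), 3 fell (30%) and 5 did not pass, against 32.3% higher and 27.4% lower over all tested miRNAs. Over the alternatives 0 to 3 were called higher and 2 to 4 lower. Of the 2 that rose, miR-497a-5p kept its call in 1 of the 10 fits that left out 1 library (without DIV5_GDNF replicate 1, largest adjusted p = 0.114).

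The imprinted Dlk1-Dio3 region on chromosome 12, is a large maternally expressed miRNA locus active in brain. Its arms come from shared transcripts and are not independent of each other. Of 81 tested arms 54 rose (66.7% against 32.3% over all tested miRNAs), 4 fell and 23 did not pass, with a median of 0.72. Its summed level went from 73834 to 90446 CPM in the day 1 libraries to 116388 to 150039 CPM on day 5. miR-434-3p was at 9921, 7485, 8095, 8271 and 9603 CPM on day 1 and at 23144, 24710.5, 26809, 23076 and 18935 CPM on day 5, 2.69-fold higher without overlap (log2 1.43 ± 0.11, adjusted p = 4.71e-07). miR-127-3p, the most abundant of the region, rose from 30067, 26453, 25459, 26198 and 26888 CPM to 33799, 31779, 44777, 51252 and 42859 CPM (log2 0.60 ± 0.12, adjusted p = 0.00105), and in replicates 1 and 2 its value of 0.22 did not pass. miR-381-3p rose from 2311 ± 224 to 6904 ± 1115 CPM (log2 1.58 ± 0.12). miR-410-3p rose from 5791 ± 546 to 13566 ± 1972 CPM (log2 1.23 ± 0.11). miR-136-3p (log2 1.44 ± 0.14) and miR-541-5p (log2 0.46 ± 0.10) rose as well. The largest fold in the region was that of the rare miR-544-5p, from 1.29 ± 1.02 to 11.1 ± 2.21 CPM (log2 3.38 ± 0.45). At the start of the region Mir770 (chr12:109563692-109563785, plus strand) overlaps an exon of Meg3, and both of its arms rose (miR-770-3p by log2 1.67 ± 0.17). The count of arms called higher ranged from 25 in replicates 1 and 2 to 58 in replicates 3 to 5, and the region's 4 decreases were miR-679-5p, miR-493-3p, miR-758-3p and miR-409-3p (log2 -0.96 ± 0.25, -0.92 ± 0.32, -0.57 ± 0.19 and -0.39 ± 0.12). The call of miR-493-3p was lost without DIV1_GDNF replicate 4 (adjusted p = 0.0504) and that of miR-758-3p without DIV1_GDNF replicate 1 (adjusted p = 0.0600). Some increases were fragile as well. miR-379-5p (log2 0.54, adjusted p = 0.0429) was called in 9 of 24 alternatives and was at -0.19 in replicates 1 and 2. Of the same 24, miR-134-5p was called in 18, miR-127-3p and miR-770-5p in 23 each and miR-434-3p in 24.

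**Figure D4:**
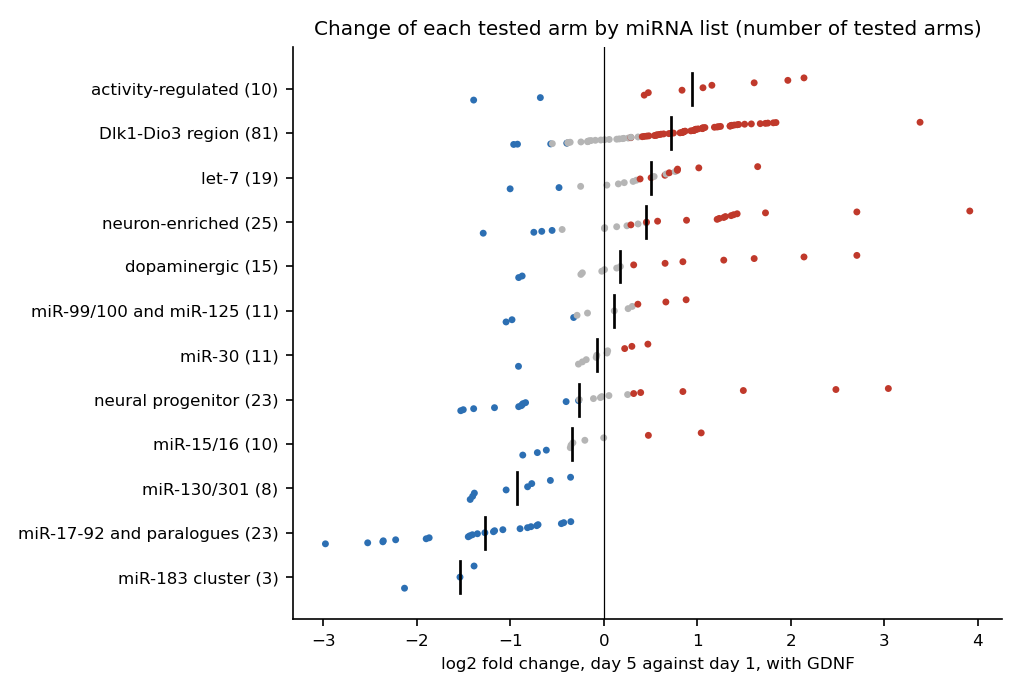
Log2 fold change of day 5 against day 1 with GDNF (x axis) for every tested arm of 12 lists of miRNAs (y axis, number of tested arms in brackets); red dots were called higher, blue dots lower and grey dots were not called, and the black line is the median. The medians run from -1.54 for the miR-183 cluster and -1.27 for miR-17-92 and paralogues to 0.95 for the activity-regulated miRNAs; some lists share members.

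The miR-183 cluster, whose members are known from sensory cells and 2 of which give the series its title, fell over time in the presence of GDNF. The 3 hairpins Mir183 (chr6:30169668-30169737, minus strand), Mir96 (chr6:30169446-30169551, minus strand) and Mir182 (chr6:30165918-30165992, minus strand) lie outside other annotated genes. miR-182-5p was at 3504, 2817, 3456, 3285 and 4197 CPM on day 1 and at 1439, 1548, 899, 815 and 1246 CPM on day 5. No day 5 library reached the day 1 range, and the level was 2.9-fold lower (log2 -1.54 ± 0.18, adjusted p = 6.48e-06). miR-183-5p was at 386, 437, 409, 499 and 696 CPM and then at 213, 202, 119, 175 and 216 CPM, 2.61-fold lower (log2 -1.39 ± 0.19, adjusted p = 3.99e-05). miR-96-5p was low, with 21.1, 14.6, 12.2, 18.4 and 35.4 CPM on day 1 and 5.03, 4.66, 3.93, 3.7 and 4.08 CPM on day 5 (log2 -2.13 ± 0.29, adjusted p = 2.82e-05). All 3 tested arms were called lower (27.4% over all tested miRNAs), and for all 3 the groups were separate (38.9% over all tested miRNAs). The decrease of miR-182-5p was -1.07 in replicates 1 and 2 and -1.79 in replicates 3 to 5 on the log2 scale.

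In the list of miRNAs described in midbrain dopaminergic neurons or their progenitors, 7 of 15 tested arms rose, 2 fell and 6 did not pass (median 0.18). Over all tested miRNAs 32.3% were higher and 27.4% lower. The risers were miR-7a-5p, miR-7b-5p, both arms of miR-132, miR-135a-5p, miR-135b-5p and miR-34b-5p, and both decreases were opposite arms of miR-135, miR-135b-3p (log2 -0.87 ± 0.12) and miR-135a-1-3p. Of the 10 fits that left out 1 library, 3 kept the call of miR-34b-5p (those without DIV1_GDNF replicate 4, DIV5_GDNF replicate 4 or DIV5_GDNF replicate 5, largest adjusted p = 0.0847). That of miR-135b-5p was kept in 6 and lost without DIV1_GDNF replicates 1, 2 or 4 or DIV5_GDNF replicate 5 (largest adjusted p = 0.0660). miR-133b, described in midbrain dopaminergic neurons, had no read in any library of the 10. Neither did miR-138-5p of the neuron-enriched list. How reads that fit several loci were counted is not given, so an arm without reads is not shown to be absent from the cells. The same holds for the other arms named without reads. miR-135a-5p, which is known to target Wnt signalling and Lmx1b, was at 1188, 1154, 1156, 1026 and 1197 CPM on day 1 and at 1650.0, 1622, 2107, 2175 and 2731 CPM on day 5, 1.8-fold higher without overlap (log2 0.85 ± 0.14, adjusted p = 0.000149). The other arm of its first hairpin, miR-135a-1-3p, fell from 921 ± 57.0 to 491 ± 99.3 CPM (log2 -0.91 ± 0.14, adjusted p = 7.84e-05). miR-375-3p, an endocrine and neuronal miRNA, was at 476 ± 69.9 CPM and then at 406 ± 129.6 CPM and did not pass (log2 -0.23 ± 0.20).

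Markers of cells other than neurons were present, and several lists differed between the days. The labelled neurons had their markers: the summed level of the neuron list is given above, and miR-124-3p was between 2205 and 7747 CPM in the 10 libraries. The 2 tested markers of leukocytes and microglia fell, from a list sum of 81.0 to 121 CPM to 13.8 to 40.2 CPM, with miR-142a-5p, a blood-cell miRNA, at 84.2, 70.6, 93.7, 67.7 and 50.6 CPM on day 1 and 12.6, 33.2, 9.83, 15.3 and 11.7 CPM on day 5 (log2 -2.21 ± 0.31, adjusted p = 3.76e-05). The endothelial miR-126a-3p fell from 58.2 ± 16.8 to 25.7 ± 6.57 CPM (log2 -1.17 ± 0.24), and the other 3 arms of miR-126a and miR-126b had no read. Of 8 tested arms known from smooth muscle, meninges and fibroblasts, 3 fell, 1 rose and 4 did not pass. Over all tested miRNAs 27.4% were lower and 32.3% higher. The list sum was 4036 to 5604 CPM on day 1 and 1839.8 to 4820.1 CPM on day 5. Within it miR-143-3p was at 3143, 2604, 2942, 2592 and 2766 CPM on day 1 and at 1762, 1375, 574, 394 and 185 CPM in day 5 libraries 1 to 5, where libraries 1 and 2 kept the highest levels. Its log2 fold change of -1.71 ± 0.56 (adjusted p = 0.0264) was -0.87 in replicates 1 and 2 and -2.74 in replicates 3 to 5, and the call was lost without DIV5_GDNF replicate 3 (adjusted p = 0.0623) or 4 (adjusted p = 0.0556). miR-145a-5p, transcribed with it and known from smooth muscle, fell from 17.1 ± 3.41 to 3.08 ± 1.34 CPM (log2 -2.53 ± 0.31).

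The red blood cell list split: miR-451a, a red-cell miRNA, fell from 44.9, 32.7, 47.2, 28.1 and 10.1 CPM to 2.01, 21.0, 10.3, 6.66 and 8.17 CPM with overlapping groups (log2 -1.86 ± 0.46, adjusted p = 0.0039). The joined feature miR-486b-5p|miR-486a-5p rose from 2704 ± 397 to 5813 ± 933 CPM (log2 1.10 ± 0.13). The list sums were 2225 to 3243 CPM on day 1 and 4231 to 6676 CPM on day 5. Of the oligodendrocyte-lineage arms miR-219a-2-3p fell from 532 ± 68.6 to 203 ± 53.4 CPM (log2 -1.40 ± 0.17). miR-219a-1-3p fell from 309 ± 17.96 to 156 ± 11.9 CPM (log2 -0.99 ± 0.11), while miR-338-5p rose (log2 1.73 ± 0.32) and miR-219a-5p had no read, with list sums of 716 to 946 CPM and 330.3 to 461 CPM. Among the epithelial and choroid plexus arms miR-204-5p rose 2.5-fold, from 683 ± 99.2 to 1700.5 ± 311 CPM (log2 1.32 ± 0.14, adjusted p = 4.33e-06), and the 3 other tested arms fell, with list sums of 720.3 to 987 CPM and 1436 to 2148 CPM. For astrocytes and reactive glia 2 of 6 tested arms rose and 1 fell, against 32.3% higher and 27.4% lower over all tested miRNAs. miR-21a-5p was at 2945 ± 182 CPM on day 1 and 2892 ± 167 CPM on day 5 (adjusted p = 0.793), with list sums of 2841 to 3301 CPM and 2821 to 3217 CPM. miR-31-5p rose in this list (log2 1.70 ± 0.21). miR-192-5p and miR-194-5p of the hepatocyte list rose (log2 0.64 ± 0.09 and 1.15 ± 0.13), with list sums of 2709.6 to 3053 CPM and 4146 to 5104 CPM, and the striated-muscle list had 1 tested arm, miR-208b-3p, at up to 8.15 CPM. The Hox-cluster miR-10b-5p and miR-10a-5p, which mark tissue behind the midbrain, did not pass (log2 -0.78 ± 1.12 and -1.54 ± 1.47), and 1 library in each group stood far above the others, with list sums of 75.8 to 752 CPM and 8.63 to 379 CPM. miR-10a-5p was called lower without DIV5_GDNF replicate 2 (log2 -4.42, adjusted p = 0.0157), without day 5 libraries 1 and 2 (-5.20, 0.0168), in replicates 3 to 5 (-5.62, 0.0302) and by limma voom (-3.33, 0.0323), and was at 1.40 in replicates 1 and 2 (adjusted p = 0.610). The part of these other cells in the changes given above was not tested.

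The last question was whether the change over time differed with and without GDNF, which was tested as 1 contrast in a fit of all 20 libraries. In that fit 284 of 542 tested miRNAs (52.4%) changed over time with GDNF and 329 (60.7%) without, of which 245 were called in both kinds of culture in the same direction and none in opposite directions. For the difference of the 2 changes, 0 of 542 miRNAs (0%) were called by edgeR, and DESeq2 and limma voom also called 0. An unadjusted p below 0.05 was found for 50 by edgeR, 50 by DESeq2 and 25 by limma voom, and the smallest adjusted p was 0.436 in edgeR, 0.0981 in DESeq2 and 0.828 in limma voom. Across the 542 miRNAs the log2 fold changes with and without GDNF, which share no library, correlated at 0.862 (Pearson's r) and 0.881 (Spearman's rho), 86.5% had the same sign, and their SD was 1.00 with and 1.20 without GDNF. The untreated day 5 libraries were split by replicate number as DIV5_GDNF was. Reads outside any miRNA made up 19.0% and 17.7% in DIV5_control libraries 1 and 2 and 11.4% to 13.3% in libraries 3 to 5. The changes with and without GDNF are therefore not shown to be independent of each other. The miRNAs of one library are not independent, so no p is given. A difference that does not pass is not shown to be absent: the SE of the difference was 0.15 for the abundant miR-124-3p and 0.53 for the rare miR-96-5p on the log2 scale.

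**Figure D5:**
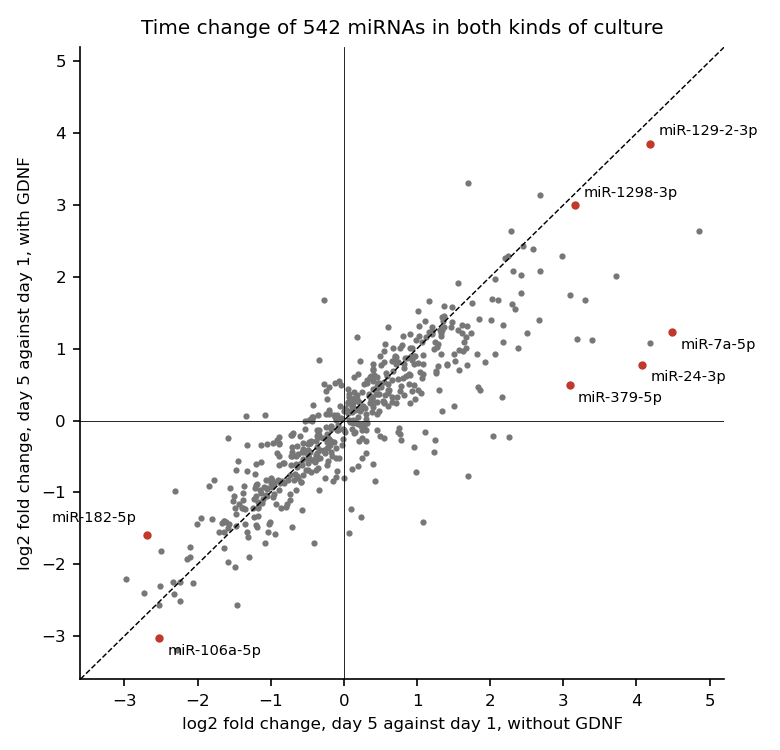
Log2 fold change of day 5 against day 1 for 542 miRNAs without GDNF (x axis, DIV5_control against DIV1_control) and with GDNF (y axis, DIV5_GDNF against DIV1_GDNF) from 1 fit of 20 libraries; the dashed line marks equal changes and the labelled miRNAs are in red. miR-129-2-3p is high on both axes (4.19 and 3.85), and miR-7a-5p, miR-24-3p and miR-379-5p lie far to the right of the line.

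miR-129-2-3p changed by log2 3.85 ± 0.34 with and 4.19 ± 0.34 without GDNF. miR-1298-3p changed by 2.99 ± 0.35 and 3.16 ± 0.36. miR-124-3p changed by 1.31 ± 0.11 and 1.36 ± 0.11, and miR-92a-3p by -2.41 ± 0.17 and -2.73 ± 0.17. The median of the 11 tested arms of the activity-regulated list was 0.77 with and 1.25 without GDNF, that of the 8 arms of the smooth muscle and fibroblast list -0.26 and -1.23, and that of all 542 miRNAs 0.0017 and 0.10. The 5 miRNAs with the smallest p of the difference all had a lower log2 fold change with GDNF than without: the difference was -3.30 for miR-24-3p, -3.26 for miR-7a-5p, -2.59 for miR-379-5p, -2.47 for miR-425-3p and -1.37 for miR-146b-5p. Untreated day 5 libraries 1 and 5 stood high for these miRNAs: miR-7a-5p was at 2289, 111, 304, 295 and 4537 CPM in the untreated and at 128, 113, 247, 216 and 297 CPM in the treated day 5 libraries. miR-24-3p was at 1107, 55.3, 88.0, 73.0 and 1623 CPM and 35.1, 56.7, 74.1, 68.1 and 107 CPM. Without those 2 untreated libraries the 5 differences were -0.25, -0.58, -0.72, -0.82 and -0.51 in the same order, and 16 of 530 miRNAs had an unadjusted p below 0.05 with a smallest adjusted p of 0.997.

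For miR-182-5p the decrease was log2 -1.59 ± 0.28 with GDNF and -2.69 ± 0.29 without. Day 1 levels were 3467, 2938, 3697, 3378 and 4310.4 CPM with and 2588, 2408, 2867, 3116 and 2875 CPM without GDNF. Day 5 levels were 1434, 1552, 907, 825 and 1191 CPM with and 539, 832, 273, 291 and 223 CPM without. On day 5 the untreated libraries were under the treated ones except for untreated library 2, which lay just above the lowest treated library. The difference of 1.10 ± 0.38 had an unadjusted p of 0.00954 and an adjusted p of 0.436. Without DIV5_control replicate 2 it was 1.5004 with an adjusted p of 0.0385, the single call of the difference in any fit that left out 1 library. The cluster's other members also had positive differences that did not pass, with miR-96-5p at 0.78 ± 0.53 (adjusted p = 0.744) and miR-183-5p at 0.57 ± 0.43 (adjusted p = 0.794).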

How the data were processed

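Small RNA libraries were made from Tri-reagent RNA with the TruSeq kit, per the labels' protocols. The deposited files hold raw read counts per mature miRNA, which the authors made with cutadapt 1.8.1, STAR 2.4.1d, HTSeq and the mm10 build, per the submitters' processing notes; the miRNA annotation, the handling of reads that fit several loci and the use of strand are not given in the sources used here. Reads that HTSeq tallied outside any feature were left out of library sizes. Counts of the 10 GDNF libraries were filtered with edgeR's filterByExpr, scaled by TMM and fitted with edgeR 4.0.16 (robust quasi-likelihood, R 4.3.3), with the SE taken as the log2 fold change divided by the root of F. All tests are two-sided, and p-values were adjusted by the Benjamini-Hochberg method over all tested miRNAs. CPM are TMM-scaled. The difference with and without GDNF came from 1 fit of 20 libraries. DESeq2 1.42.0, limma 3.58.1 voom, other scalings and filters, left-out libraries and thinned counts were alternatives. The script was tested on simulated data.

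Named were the 12 largest increases and 12 largest decreases of calls that averaged 10 CPM or more, the 5 most abundant miRNAs, the miR-183 cluster, the 2 most abundant arms of each list, the 5 smallest p-values of the difference, and opposite arms of the extremes. Other arms named within a list or cluster were chosen after their values were seen. Members and lists were chosen with earlier results of these data known. Between 420118 and 3983722 counts per library limit precision for rare miRNAs.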

Additional observations from a re-analysis of the deposited data

Results flagged for a closer look

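In 12 of 174 groups of 5 libraries tested over the named miRNAs, the highest or lowest library lay far from the other 4 by Dixon's criterion, which chance alone does for about 1 group in 20. On day 1 miR-10b-5p was at 412.6 CPM in library 5 (40.8 to 59.4 CPM in the others) and miR-10a-5p at 334.1 CPM in the same library (26.7 to 39.7 CPM). On day 5 miR-10b-5p was at 239.5 CPM in library 2 (7.40 to 55.9 CPM in the others) and miR-10a-5p at 139.3 CPM (0.817 to 11.6 CPM). These 2 Hox-cluster miRNAs are therefore high in 1 library of each day.

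Day 5 library 2 was also high for miR-142a-5p, at 33.2 CPM (9.83 to 15.3 CPM in the others), and for miR-128-3p, at 10638 CPM (6407 to 7024 CPM). Day 5 library 1 was high for miR-298-5p, at 14173 CPM (8574 to 9436 CPM), and for miR-219a-2-3p, at 295.9 CPM (166 to 195 CPM). miR-298-5p was high on day 1 in library 1, at 26699 CPM (19707 to 21215 CPM in the others). miR-135a-5p was low in day 1 library 4, at 1026 CPM (1154 to 1197 CPM). miR-467d-5p was at 58.5 CPM in day 5 library 4 (43.6 to 47.8 CPM) and miR-219a-1-3p at 176.7 CPM in day 5 library 5 (147 to 154 CPM).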

How the results depend on the processing

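The count of 303 calls was 284 with all 20 libraries, 310 by DESeq2, 306 by limma voom, 293 scaled by total counts, 287 by upper quartile, 299 without miR-6239, 341 without a filter and 272 with a 10 CPM filter; no filter gave 119 at least 2-fold higher. In replicates 1 and 2 alone, with fewer libraries, it was 162 (86 higher, 76 lower), with 93 of at least 2-fold (49 higher, 44 lower). Thinned to 420118 reads, with 359 tested, it was 198 (101 higher), with 91 of at least 2-fold (48 higher, 43 lower). Replicates 3 to 5 gave 310, and 322 were called without day 5 libraries 1 and 2. Leaving out each library gave 273 to 307 calls, 147 to 163 of them higher, 137 to 160 of at least 2-fold (74 to 86 higher, 62 to 76 lower), 303 to 344 without GDNF and 0 to 1 for the difference, the 1 without DIV5_control replicate 2. With a replicate block 287 were called (153 higher, 134 lower); same-numbered libraries of the 2 days had deviations correlated at -0.121 to 0.147 and none correlated best with its own number, so the numbers were not taken to pair them.

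Over the alternatives 1905 values of named miRNAs kept direction and side of the threshold, 90 lost the threshold, 18 gained it and 55 changed sign. In log2, miR-181a-5p was 0.058 by total counts, 0.031 without miR-6239, 0.071 without a filter, 0.21 in replicates 1 and 2, and -0.11 to 0.020 with libraries left out. miR-9-5p was -0.035 by upper quartile, -0.0070 thinned, and -0.035 to 0.17 with libraries left out, and miR-99b-5p -0.045 to 0.30 with libraries left out. miR-322-5p was -0.051 with 20 libraries, -0.043 by DESeq2, -0.042 by relative log expression, -0.037 with the 10 CPM filter, -0.031 by voom, -0.077 by upper quartile and with the replicate block, -0.72 in replicates 1 and 2, -0.0092 thinned, and -0.16 to 0.13 with libraries left out. let-7c-5p was -0.022 with 20 libraries, -0.020 by DESeq2 and relative log expression, -0.089 by upper quartile, -0.41 in replicates 3 to 5, -0.029 thinned, -0.35 without day 5 libraries 1 and 2, and -0.13 to 0.16 with libraries left out. miR-30e-5p was 0.019 by total counts, 0.031 without a filter and 0.12 in replicates 3 to 5, and miR-26a-5p 0.022, 0.035 and 0.033. miR-21a-5p was 0.067 by total counts, 0.038 without miR-6239, 0.081 without a filter, 0.059 in replicates 3 to 5, and -0.062 to 0.0086 with libraries left out. miR-34c-5p was -0.0069 without day 5 libraries 1 and 2, miR-148a-3p -0.040 by upper quartile, and miR-222-3p -0.015 and miR-379-5p -0.19 in replicates 1 and 2. miR-10b-5p was 1.44 and miR-10a-5p 1.40 in replicates 1 and 2, and miR-10b-5p -2.19 to 0.41 with libraries left out. The cause was not tested. The shallower day 1 libraries limit what can be called for rare miRNAs.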

Other observations

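The 2 arms of a hairpin did not always change together. For 134 hairpins with both arms tested, the signs agreed for 101 (75.4%). Both arms were called in the same direction for 52 and in opposite directions for 11 (miR-153, miR-488, miR-342, miR-148b, miR-335, miR-181c, miR-340, miR-125b-1, miR-409, miR-296 and miR-135a-1). Across hairpins the 2 log2 fold changes correlated at 0.707 (Pearson's r) and 0.660 (Spearman's rho). Hairpins of 1 locus are not independent. Hairpins that make the same arm, such as those of miR-9, enter with the same values, so the 134 are not all distinct pairs of arms. miR-124, which comes from several hairpins and is not among these, had a log2 fold change of 1.36 for the 3p arm and -1.29 for the 5p arm.

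The miR-181 family, the most abundant of these cultures, was uneven. miR-181a-5p was at -0.04 and was not called, miR-181b-5p fell (-1.17), miR-181d-5p fell (-0.40) and miR-181c-5p rose (0.40). Their seeds are the same, and the 5p arms of miR-181a and miR-181b are each made from a pair of loci, so that a count cannot be assigned to one locus.

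Values of 3 groups of neighbouring hairpins follow. On the X chromosome 4 of 5 tested arms between miR-500 and miR-188 (7237683 to 7248497, GRCm38) rose (32.3% higher over all tested miRNAs), with a median of 0.96, and 1 did not pass. The call of miR-188-5p among them was kept in 3 of the 10 fits that left out 1 library (largest adjusted p = 0.103). On chromosome 11, 3 of 4 tested arms of miR-216a and miR-217 (28757012 to 28763835) fell (27.4% lower over all tested miRNAs), with a median of -1.33. The imprinted pair miR-296 and miR-298 on chromosome 2 split: miR-296-5p rose (log2 0.59) while miR-296-3p (-1.15) and the abundant miR-298-5p (-1.10) fell. These positions and families were picked after their values were seen.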
